A study of Homo sapiens with 14 samples.

Results

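miR-1246 and miR-1290 are 2 miRNA entries whose sequences overlap with each other and with U2 small nuclear RNA (snRNA), and they were followed here through 14 small RNA libraries of extracellular vesicles (EVs), small membrane-bound particles shed by cells. The members were chosen by name, as the rows miR-1246 and miR-1290 of the raw count table, and they are 2 of its 2632 miRNAs and 2 of the 447 with a count in any library.

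All vesicles came from pro-epicardial cells that had been derived from the human embryonic stem cell line hES-2, so every group rests on 1 line. The epicardium is the outer cell layer of the heart. NT cells (3 libraries) received no additive and are labelled untreated pro-epicardial. SB cells (4 libraries) were kept in 6 µM SB-431542, an inhibitor of the TGF-β receptor kinase, for 8 days and are labelled mature epicardial. TGFb cells (4 libraries) received 5 ng/ml TGF-b1 for 4 days and then no treatment, and FGF cells (3 libraries) received 10 ng/ml bFGF for 8 days, and both are labelled stimulated epicardial. In all groups the medium was passed through a 100 kDa filter from day 4 to remove its own vesicles, and the vesicles come from medium conditioned for 48 h up to day 6 and again up to day 8. The labels do not say whether replicates were separate differentiations or cultures, so p-values measure the spread between these libraries, which may be technical.

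A miRNA is usually cut from a hairpin precursor by the nucleases DROSHA and DICER1 and then guides an Argonaute protein to messenger RNAs that pair with its seed, bases 2 to 8 from its 5′ end. U2 snRNA is the part of the spliceosome that pairs with the branch point of introns, and it is among the most abundant nuclear RNAs. miR-1246 has been proposed to arise as a fragment of U2 snRNA rather than from its annotated hairpin, and it is often reported from vesicles of tumour cells. A sequencing read equal to miR-1246 therefore does not by itself tell which transcript it came from.

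The mature sequences (RefSeq, GRCh38.p14) are shown because the overlap can be read from them directly. The capitals mark the seed.
miR-1246: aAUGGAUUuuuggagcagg
miR-1290: uGGAUUUUuggaucaggga
Both are 19 bases long. They share an unbroken run of 12 bases, which covers bases 3 to 14 of miR-1246 and bases 1 to 12 of miR-1290 and is in capitals in the next lines.
miR-1246: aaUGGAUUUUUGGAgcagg
miR-1290: UGGAUUUUUGGAucaggga
With miR-1290 set 2 bases downstream, 16 of the 17 overlapping bases are equal, and the difference is G15U (the base of miR-1246, its position from the 5′ end, then the base of miR-1290). The seeds differ because of the offset, and no other mature miRNA of the 2370 in the RefSeq table has either seed.

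The match to U2 was then read from the 191-base transcript of RNU2-1 (GENCODE release 29), the gene of the major human U2 snRNA on chromosome 17 (43233787 to 43233977, minus strand, GRCh38). The lines show the transcript as DNA letters with 20 bases on each side, and the capitals mark bases equal to the miRNA.
RNU2-1 at miR-1246: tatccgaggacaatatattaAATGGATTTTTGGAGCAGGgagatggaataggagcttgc
RNU2-1 at miR-1290: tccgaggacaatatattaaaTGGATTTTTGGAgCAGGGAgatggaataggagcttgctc
All 19 bases of miR-1246 were found at bases 94 to 112 of RNU2-1. For miR-1290, 18 of 19 bases matched at bases 96 to 114, and the difference is T13G (the base of miR-1290, its position, then the base of RNU2-1). miR-1246 occurred whole in 19 annotated snRNA transcripts and with 1 mismatch in another 12, and miR-1290 occurred in 0 whole and in 23 with 1 mismatch. All of these transcripts carry a U2 name in the annotation.

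This overlap is rare among miRNAs. Of the 2370 mature sequences, 1 (0.0422%) lies whole in an annotated snRNA transcript, and it is miR-1246. Another 2 (0.0844%) lie in one with 1 mismatch, miR-1290 and miR-1972, and miR-1972 had no count in any library. In snRNA, small nucleolar RNA and related small RNA classes together, 11 mature sequences (0.464%) were found whole, of which 6 had counts here.

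The annotated hairpins are shown with the mature part in capitals, because for miR-1246 only bases outside it could tell hairpin reads from reads of RNU2-1, while miR-1290 already differs from RNU2-1 within the mature part.
MIR1246 hairpin: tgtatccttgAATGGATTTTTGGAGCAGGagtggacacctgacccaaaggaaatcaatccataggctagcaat
MIR1290 hairpin: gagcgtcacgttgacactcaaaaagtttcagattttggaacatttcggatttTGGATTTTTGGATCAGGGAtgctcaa
The longest run shared by the MIR1246 hairpin and RNU2-1 is 19 bases and ends exactly where the mature sequence ends on both sides. For MIR1290 the longest shared run is the 12 bases before the mismatch. MIR1246 lies on chromosome 2 (176600980 to 176601052, minus strand, GRCh38), where the GENCODE annotation has no other gene. MIR1290 lies on chromosome 1 (18897071 to 18897148, minus strand), within an intron of ALDH4A1, the gene of a mitochondrial aldehyde dehydrogenase of proline breakdown, and of the overlapping locus AL080251.1 on the same strand. The count table gives no read sequences or lengths, so neither hairpin reads nor U2 reads could be counted apart.

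Library totals ran from 115 to 14862 counts, and the miRNAs held 47091 counts in all. miR-1246 took 1167 of these (2.48%) and miR-1290 took 199 (0.423%). Levels are given as the share of a library's miRNA counts, and intervals on a share are 95% Wilson intervals that cover counting error only. In vesicle samples, fewer vesicles and less of an RNA per vesicle cannot be told apart, and a share moves with every other miRNA in the library. Of 8 markers of undifferentiated stem cells, 2 (miR-302a-3p and miR-372-3p) had any count, and their summed share did not exceed 0.0990% in any library. No list of epicardial marker miRNAs was used, so the labelled cell type was not checked beyond this.

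miR-1246 was counted in 14 of 14 libraries, 1 of 18 miRNAs of which this is true. It ranked 4 by mean share (3.82% ± 1.90, SD, n = 14), below miR-125a-5p (6.89% ± 4.27) and above miR-92a-3p (3.01% ± 1.09). This mean weighs shallow and deep libraries alike. In counts over all libraries miR-92a-3p (1774), miR-99b-5p (1772) and let-7e-5p (1323), which follow by mean share, exceeded miR-1246 (1167). Within NT replicate 1, the deepest library, miR-1246 ranked 18. Its spread was lower than that of most tested miRNAs, nearly all of which were less abundant. This comparison does not set it apart from miRNAs of like abundance. The coefficient of variation of its share was 49.8%, the ninth lowest of the 47 miRNAs abundant enough for testing, whose median was 80.3%. miR-1290 was counted in 12 libraries and ranked 30 by mean share (0.635% ± 0.625, SD, n = 14), between miR-34a-5p (0.652% ± 0.735), a target of p53, and miR-126-3p (0.634% ± 1.05), a miRNA of endothelial cells. Its coefficient of variation was 98.4%.

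In the NT libraries miR-1246 made up 0.659% of counts in replicate 1 (98 counts, interval 0.541% to 0.803%), 2.37% in replicate 3 (224 counts) and 4.26% in replicate 4 (43 counts). In SB it made up 4.06%, 5.59%, 7.16% and 2.88% in replicates 1 to 4 (14, 10, 274 and 37 counts). The highest share of all was that of SB replicate 3, and the lowest was that of NT replicate 1, the deepest library, so the whole range was 10.9-fold. In TGFb it made up 2.68%, 4.76%, 2.26% and 2.09% in replicates 1 to 4 (38, 11, 169 and 58 counts). In FGF it made up 6.96% in replicate 2, 4.88% in replicate 3 and 2.88% in replicate 4 (8, 158 and 25 counts). Every pair of groups overlapped. Among the 47 tested miRNAs, shares without overlap were found for 8.51% when NT was compared with SB, 8.51% with TGFb and 17% with FGF. Between treatments the figure was 8.51% for SB and TGFb, 10.6% for SB and FGF, and 14.9% for FGF and TGFb. The share of FGF replicate 2 rests on 8 of 115 counts (interval 3.57% to 13.1%).

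By mean share of miR-1246 the groups stood in the order NT (2.43% ± 1.80, SD, n = 3), TGFb (2.95% ± 1.23, n = 4), FGF (4.90% ± 2.04, n = 3) and SB (4.92% ± 1.86, n = 4). No neighbours in this order were told apart. By two-sided exact permutation tests, each adjusted over 6 pairs, the adjusted p was 0.857 for TGFb against NT, 0.3 for TGFb against FGF and 1 for FGF against SB. The same order ends, SB and NT, differed by 2.49 percentage points (exact permutation p = 0.143, adjusted p = 0.3), where 4 libraries against 3 cannot go below 0.029. For FGF against NT, with n = 3 in each, the exact permutation p cannot go below 0.1. With groups this small, a high adjusted p does not show that groups are alike.

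miR-1290 stood lower throughout. In NT it made up 0.0673%, 0.243% and 1.09% in replicates 1, 3 and 4 (10, 23 and 11 counts), so its share also climbed as the library total fell from 14862 to 1010. In SB it made up 1.16% in replicate 1, 0.863% in replicate 3 and 1.17% in replicate 4 (4, 33 and 15 counts), and it was not counted in replicate 2 (0 of 179 counts, which allows a share of up to 1.68%). Apart from that library, where the limit lies above the other values, the SB shares lay close together. In TGFb it made up 0.0705% in replicate 1, 0.227% in replicate 3 and 0.289% in replicate 4 (1, 17 and 8 counts). In replicate 2 of TGFb it had 0 of 231 counts, which allows a share of up to 1.30%. In FGF it made up 0.870%, 2.16% and 0.691% in replicates 2, 3 and 4 (1, 70 and 6 counts). FGF replicate 3 held the highest share of any library (interval 1.71% to 2.72%), and in it miR-1290 was the tenth most abundant miRNA.

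**Figure D1:**
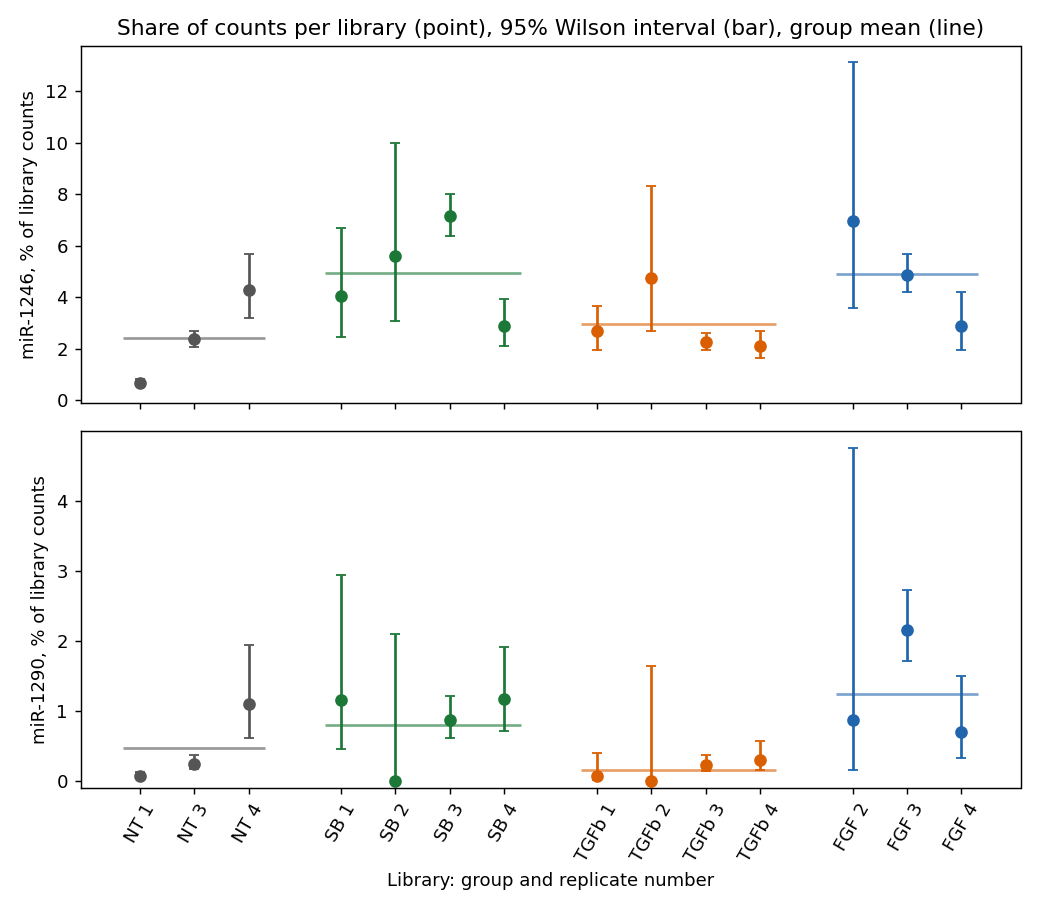
Share of miR-1246 (top) and miR-1290 (bottom) in each library, in percent of the library's miRNA counts. Points are libraries with 95% Wilson intervals and lines are group means. miR-1246 runs from 0.659% (NT replicate 1) to 7.16% (SB replicate 3) with all groups overlapping, and miR-1290 is highest in FGF replicate 3 (2.16%) and at most 0.289% in the TGFb libraries, where replicate 2 has 0 counts and an interval that reaches above the lowest FGF share.

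The mean share of miR-1290 was 0.147% ± 0.134 (SD, n = 4) in TGFb, 0.466% ± 0.546 (n = 3) in NT, 0.797% ± 0.550 (n = 4) in SB and 1.24% ± 0.801 (n = 3) in FGF. Neighbours in this order overlapped and were not told apart by two-sided exact permutation tests (adjusted p = 0.45 for TGFb against NT, 0.48 for SB against NT and 0.514 for FGF against SB). The ends of the order did not overlap: the highest TGFb share was 0.289% and the lowest FGF share 0.691%, although the 0 counts of TGFb replicate 2 allow up to 1.30%. The exact permutation p was 0.029, the smallest that 4 against 3 libraries can give, and the p adjusted over 6 pairs was 0.171. A single pair at the smallest p thus could not pass 0.05 after adjustment, so these tests cannot show that groups are alike. Of the 47 tested miRNAs, 14.9% had shares that did not overlap between TGFb and FGF, 7 in all with miR-1290 included.

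Differences between groups were then tested on the counts with edgeR's quasi-likelihood test (TMM normalization, all 14 libraries in 1 fit), which weighs the depth of each library. Neither member passed an adjusted p of 0.05 in any of the 6 comparisons or in the 4-group test, so 0 of 12 member comparisons passed. An unadjusted p under 0.05 was found for 1 of them, miR-1290 in TGFb against FGF, where 7 of all 47 miRNAs had one. DESeq2 also gave 0 passing and 1 with an unadjusted p under 0.05, in the same comparison, where it gave 7 among the 47. Over all 47 miRNAs the share called was 2.13% in SB against NT, 2.13% in FGF against NT and 0% in the other 4 comparisons and in the 4-group test, so a count of 0 among 2 members is close to the background.

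For miR-1246 the log2 fold change against NT was 0.94 (SE 0.51, edgeR adjusted p = 0.441) in SB, 0.37 (SE 0.50, adjusted p = 0.935) in TGFb and 0.61 (SE 0.54, adjusted p = 0.675) in FGF. The 3 values share the NT libraries, and NT replicate 1 holds the lowest share of miR-1246: without it they were 0.30, −0.06 and −0.02, so the direction in TGFb and FGF turned. The value in FGF also turned, to −0.06, without FGF replicate 3. Among the treated groups, TGFb against SB was −0.57 (SE 0.47, edgeR adjusted p = 0.879), FGF against SB was −0.33 (SE 0.51, adjusted p = 0.945) and TGFb against FGF was −0.24 (SE 0.51, adjusted p = 0.970). The last of these turned to 0.49 without FGF replicate 3, and also turned without SB replicate 1 (0.17) or SB replicate 2 (0.09). The value of SB against NT rose to 1.42 without NT replicate 4 (edgeR adjusted p = 0.0867).

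For miR-1290 the largest difference was TGFb against FGF, with a log2 fold change of −2.28 (SE 0.98, unadjusted p = 0.0285, edgeR adjusted p = 0.278). In fits of only the 2 groups compared, miR-1290 did not pass the expression filter in any comparison with TGFb. Its TGFb values and their p-values here therefore depend on a filter passed through libraries of the other groups. FGF replicate 3 holds 70 of the 77 FGF counts, and without that library it was −0.94. TGFb against SB was −1.87 (SE 0.94, edgeR adjusted p = 0.544), and 26 miR-1290 counts stood in 4 TGFb libraries of 11897 counts together against 52 in 4 SB libraries of 5636. Against NT, miR-1290 differed by 1.04 in SB (SE 0.98, edgeR adjusted p = 0.635), −0.83 in TGFb (SE 0.99, adjusted p = 0.935) and 1.45 in FGF (SE 1.03, adjusted p = 0.476). FGF against SB was 0.41 (SE 0.95, edgeR adjusted p = 0.945) and turned to −0.64 without FGF replicate 3. The value of SB against NT ran from 0.30 without NT replicate 1 to 2.24 without NT replicate 4, and was 0.26 in the adjusted table. In TGFb against NT the value turned to 0.43 without NT replicate 4. Without FGF replicate 3 the difference of FGF from NT was 0.10. With standard errors near 1 on the log2 scale, differences of that size were not detectable for miR-1290 at this depth.

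**Figure D2:**
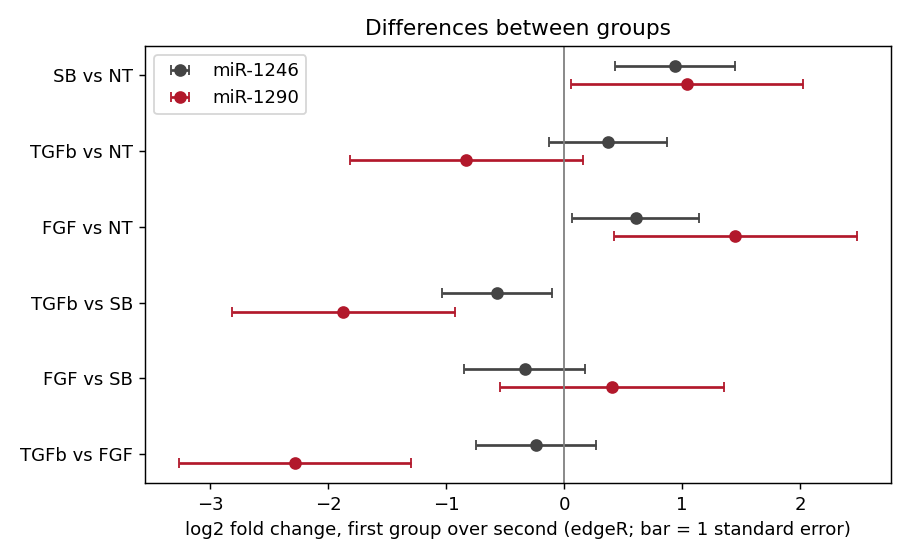
Log2 fold changes of miR-1246 and miR-1290 in the 6 comparisons of groups (first group over second), from edgeR, with bars of 1 standard error. The miR-1290 bars are wider than those of miR-1246 in every comparison, and the miR-1290 value of TGFb against FGF (−2.28) lies farthest from 0.

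Because the pair shares 12 bases in a row, and miR-1246 matches RNU2-1 whole and miR-1290 with 1 mismatch, their counts were also added. The summed share was 2.89% ± 2.32 (SD, n = 3) in NT, 3.10% ± 1.12 (n = 4) in TGFb, 5.72% ± 1.67 (n = 4) in SB and 6.14% ± 2.26 (n = 3) in FGF. The lower values of NT and TGFb and the higher values of SB and FGF overlapped at their ends. NT (25334) and TGFb (11897) also held more counts in all than SB (5636) and FGF (4224). The part of depth in the summed shares was not tested. By two-sided exact permutation tests TGFb against SB had p = 0.0571 and TGFb against FGF p = 0.0857, and both had an adjusted p of 0.257 over 6 pairs. The other 4 pairs had adjusted p-values from 0.3 to 0.971. In TGFb replicate 2 the sum was 4.76%, all of it miR-1246, and the other 3 TGFb libraries lay between 2.38% and 2.75%.

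The summed share of markers of blood and serum was likewise higher on average in SB and FGF than in NT and TGFb. The list held miR-16-5p, miR-122-5p, miR-223-3p, miR-451a, miR-486-5p and both arms of miR-144, of which 4 of 7 had counts. It was 3.20% ± 1.39 in SB (SD, n = 4, from 1.52% to 4.47%) and 3.07% ± 1.52 in FGF (n = 3, from 1.74% to 4.72%), against 0.945% ± 1.08 in NT (n = 3, from 0.161% to 2.18%) and 0.833% ± 0.525 in TGFb (n = 4, from 0.348% to 1.55%). Of the red cell markers, miR-451a and both arms of miR-144 stood at 0 in every library and miR-486-5p had 6 counts in 3 libraries. miR-16-5p, which most cell types also make, held 390 counts, and miR-122-5p, the main miRNA of liver cells, held 34. In edgeR, 0 of these 2 passed in either direction in any comparison. The part of serum RNA in the member shares was not tested.

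The proportion of the pair that was miR-1290 does not depend on the rest of the library. Over all libraries miR-1290 was 14.6% of the 1366 counts of the pair. In the libraries with the most counts of the pair, the proportion was 10.7% in SB replicate 3 (33 of 307 counts, exact binomial 95% interval 7.52% to 14.8%), 9.31% in NT replicate 3 (23 of 247, interval 5.99% to 13.6%) and 9.14% in TGFb replicate 3 (17 of 186, interval 5.41% to 14.2%). These 3 libraries from different groups agree within counting error. FGF replicate 3 did not: there miR-1290 was 30.7% of the pair (70 of 228, interval 24.8% to 37.1%), which lies above all 3 intervals.

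The remaining libraries ran from 0% to 28.8%. NT replicate 1 stood at 9.26% (10 of 108 counts), and NT replicate 4 at 20.4% (11 of 54). In SB the proportion was 28.8% in replicate 4 (15 of 52, interval 17.1% to 43.1%), 22.2% in replicate 1 (4 of 18) and 0% in replicate 2 (0 of 10, interval up to 30.8%). In TGFb it was 2.56% in replicate 1 (1 of 39), 0% in replicate 2 (0 of 11, interval up to 28.5%) and 12.1% in replicate 4 (8 of 66). FGF replicate 4 stood at 19.4% (6 of 31), and FGF replicate 2 stood at 11.1% (1 of 9) and was left out of the comparison of groups for having under 10 counts of the pair. SB replicates 3 and 4, from the same treatment, do not overlap in their intervals, so the proportion of the pair varied within a group by more than counting error.

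Between groups the proportion had a mean of 5.96% ± 5.63 (SD, n = 4) in TGFb, 12.98% ± 6.40 (n = 3) in NT, 15.5% ± 12.7 (n = 4) in SB and 25.0% ± 8.02 (n = 2) in FGF. TGFb and FGF differed by −19.1 percentage points. Their exact permutation p was 0.0667, the smallest that 4 against 2 libraries can give, with an adjusted p of 0.4 over 6 pairs. They did not overlap only because FGF replicate 2 was left out: its 11.1% lies below the 12.1% of TGFb replicate 4. With that library, TGFb against FGF was −14.4 points (exact permutation p = 0.0571, adjusted p = 0.343), FGF against NT moved from 12.05 to 7.41 points and FGF against SB from 9.57 to 4.93. The other 5 pairs had adjusted p-values from 0.45 to 0.771 both with and without it.

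**Figure D3:**
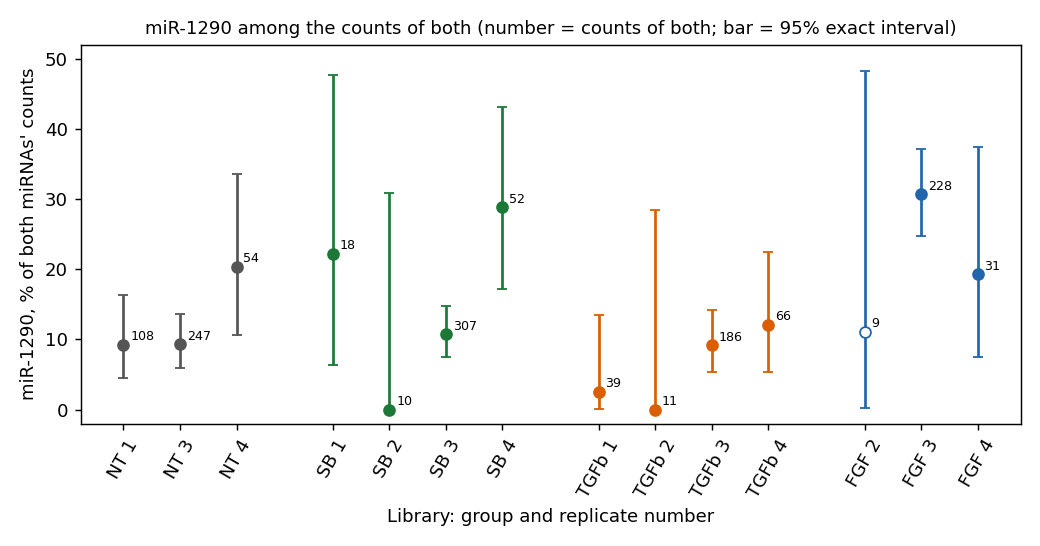
miR-1290 as a percent of the counts of miR-1246 and miR-1290 together in each library, with exact binomial 95% intervals and the number of counts of both beside each point (open point, under 10 counts). FGF replicate 3 (30.7%) lies above the intervals of NT, SB and TGFb replicates 3.

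Counts of both members grew with the library total, of which each count is a part. Deeper libraries hold more counts of any abundant miRNA, so the p-values here are no evidence of a trait of the members. The same r and rho were not computed for the other tested miRNAs. For miR-1246, log2(count + 1) and the log10 total had a Pearson r of 0.922 and a Spearman rho of 0.930 (n = 14, permutation p = 1e-05 for each, the smallest that 100000 permutations can give, adjusted p = 5e-05 over 5 relations). Leaving out NT replicates 1 and 3, whose totals were farthest from the median, gave an r of 0.947. For miR-1290, r was 0.755 (permutation p = 0.002, adjusted p = 0.005) and rho 0.756 (permutation p = 0.00257, adjusted p = 0.00642), and without the same libraries r was 0.802. As deviations from the group means, r was 0.926 for miR-1246 and 0.865 for miR-1290.

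The growth fell short of proportional for miR-1246. Its share fell with the total (Pearson r = −0.608, permutation p = 0.0221, adjusted p = 0.0368; Spearman rho = −0.587, permutation p = 0.0301, adjusted p = 0.0502). This relation rests on the libraries at both ends of the depth range. Without NT replicates 1 and 3, r was −0.433 (permutation p = 0.159), and without FGF replicate 2, the shallowest library, it was −0.496 (adjusted permutation p = 0.145). The adjusted p also rose above 0.05 when any 1 of NT replicate 1, NT replicate 3, SB replicate 2 or TGFb replicates 2, 3 and 4 was left out, with r from −0.601 to −0.502. As deviations from the group means r was −0.464 (permutation p = 0.0957). The slope of log2(count + 1) on log2 total was 0.71 for miR-1246 and 0.65 for miR-1290, ranks 20 and 16 from the lowest of 47 miRNAs with a median of 0.82. The added 1 lowers slopes at low counts, so a slope under 1 does not by itself show growth short of proportional. The share of miR-1290 showed no relation to the total that could be detected (r = −0.0483, rho = −0.0484, permutation p = 0.872 and 0.871, adjusted p = 0.872 and 0.871; r = 0.197 without NT replicates 1 and 3).

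**Figure D4:**
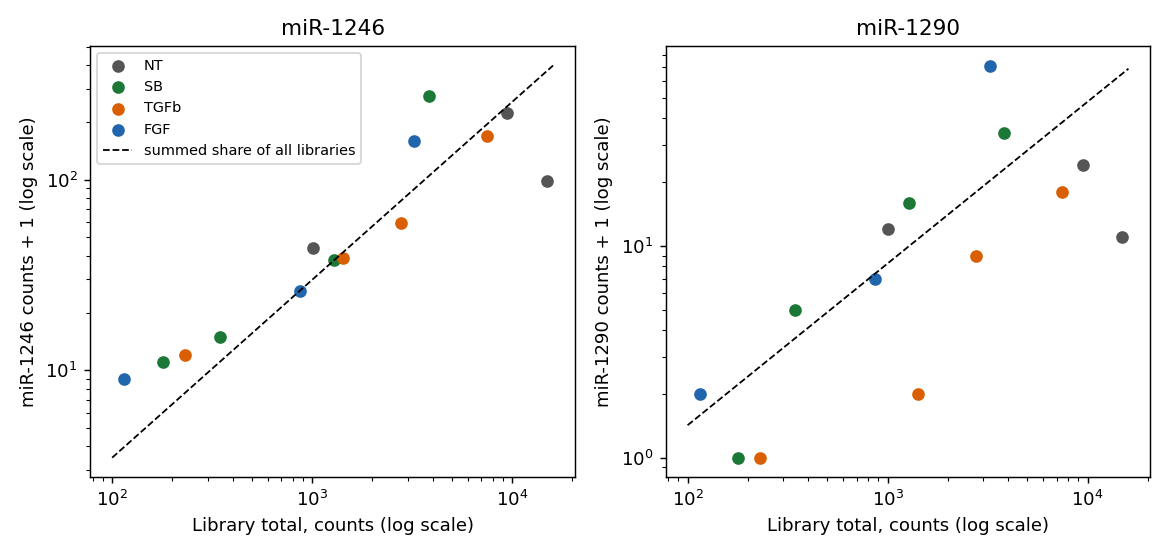
Counts of miR-1246 (left) and miR-1290 (right), plus 1, against the library total, both on log axes, 1 point a library. The dashed line is the share over all libraries summed, and NT replicate 1, the deepest library, lies below it in both panels.

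The relation between the shares of the members differed with the table used. Across 14 libraries r was 0.349 and rho 0.266 (permutation p = 0.222 and 0.354, adjusted p = 0.277 and 0.442), and r was 0.346 without the 2 libraries farthest from the median miR-1246 share. It was 0.630 in the authors' adjusted table (permutation p = 0.0154, adjusted p = 0.0257) and 0.0335 as deviations from the group means (permutation p = 0.909, adjusted p = 0.909). On the log2 CPM scale (counts scaled to a common library size, TMM normalization, prior count 2) the rho between them was 0.17, given as a description over 14 libraries that differ in depth. By that measure miR-1290 ranked 10 of 46 in likeness to miR-1246, and miR-1246 ranked 17 of 46 in likeness to miR-1290. The miRNAs most like miR-1246 were let-7b-5p (rho 0.52), miR-9-5p (0.41), a miRNA of neural cells, and miR-143-3p (0.35), a miRNA of smooth muscle and stroma. Those most like miR-1290 were miR-16-5p (0.68), miR-4516 (0.63) and miR-423-5p (0.52).

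Other miRNA entries that have been placed in non-coding RNA of another class were looked at as a list chosen by name. It holds entries placed in tRNA, small nucleolar RNA and ribosomal RNA. Of its 17 names in the table, 12 had a count, and 2 (miR-4516 and miR-4488) were abundant enough to test. The sequence search above found neither of these 2 in the small RNA classes it covered, so their place in other RNA was not shown here. miR-4516 had a mean share of 1.16% ± 0.705 (SD, n = 14, 367 counts) and miR-4488 one of 0.855% ± 0.687 (355 counts), so both exceeded miR-1290 and neither reached miR-1246. The other 10 were sparse: miR-1268a had 20 counts, miR-1260a had 16, miR-1291 had 11 and miR-1260b had 10, and the rest had 5 or fewer. In edgeR, 0 of the 2 tested names passed in either direction in any of the 6 comparisons, beside 0% to 2.13% of all 47 tested miRNAs. Against NT the median log2 fold change of these 2 was 0.06 in SB, 0.07 in TGFb and −1.06 in FGF, beside −0.04, 0.09 and −0.00111 over all 47 tested miRNAs. In FGF against NT, miR-4488 stood at −2.08 (SE 1.09, edgeR adjusted p = 0.288) and miR-4516 at −0.04 (SE 0.88, adjusted p = 0.985).

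The authors also deposited an adjusted table, in which the member values differ from the raw counts. The adjustment changed miR-1246 in 14 of 14 libraries (7 raised, 7 lowered) and miR-1290 in 10 (2 raised, 8 lowered). In NT replicate 1 it raised miR-1246 from 98 to 202 and miR-1290 from 10 to 29, and in FGF replicate 3 it lowered miR-1290 from 70 to 46. The adjusted share of a member was 0.399 to 2.88 times its raw share in the libraries with a count. In the authors' deposited table the group means of miR-1246 were 28389 CPM in NT, 31623 in TGFb, 44556 in FGF and 50349 in SB. For miR-1290 the authors' deposited means were 1015 CPM in TGFb, 3778 in NT, 6407 in SB and 8582 in FGF. Both orders are those of the raw shares.

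**Figure D5:**
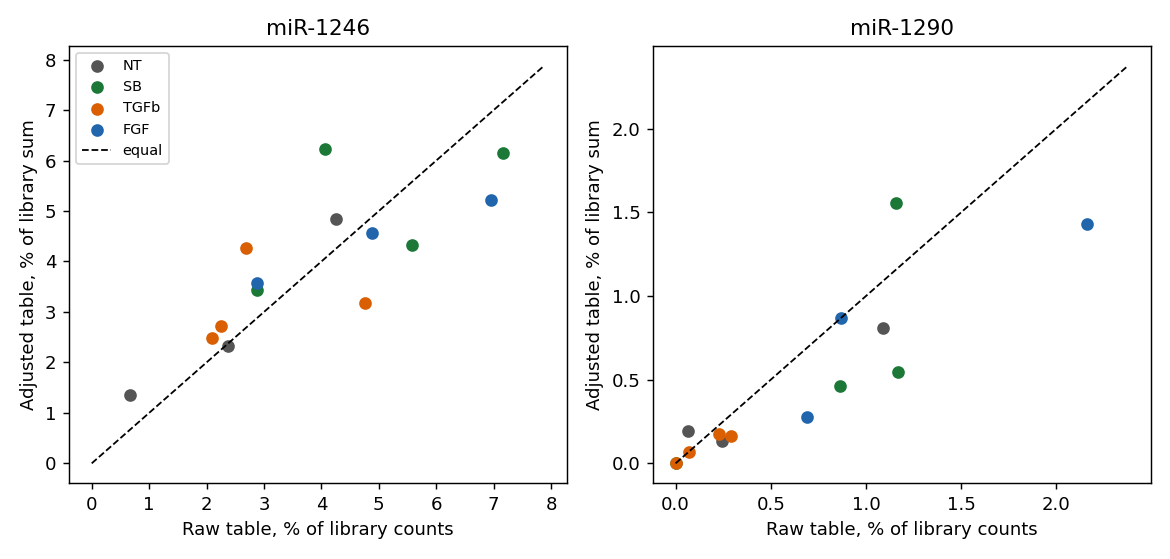
Share of miR-1246 (left) and miR-1290 (right) in the authors' adjusted table against the share in the raw table, in percent of each library's sum, 1 point a library, with a dashed line where they are equal. For miR-1290 the adjusted value was lower than the raw count in 8 libraries, FGF replicate 3 among them, and higher in NT replicate 1.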

How the data were processed

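Small RNA was sequenced from EVs precipitated with polyethylene glycol (miRCURY kit), extracted with the miRNeasy Micro kit and prepared with the QIAseq miRNA kit, per the labels' protocols. The build GRCh38 is named in the submitters' processing notes. The aligner, the miRNA annotation, the treatment of reads that match several genes and the use of molecular identifiers are not given in the sources used here. The authors' deposited raw table holds whole-number counts per miRNA with no normalization. The authors' adjusted values are whole numbers treated here as a score, since no source states how they were made. The same deposited table holds the authors' mean CPM per group, and its CPM columns per library were not used.

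Members and lists were chosen with earlier results of these data known. Counts were tested with edgeR 4.0.16 (glmQLFit with robust estimation, TMM) in R 4.3.3 on the 47 miRNAs left by filterByExpr (design by group, minimum count 10). Adjustment was by Benjamini-Hochberg over all 47, and the threshold was 0.05. Standard errors are the absolute log2 fold change over the square root of F. Shares were compared by exact permutation tests. DESeq2 1.42.0 and limma 3.58.1 (log2 CPM of the adjusted table) were alternatives. The edgeR script was tested on simulated libraries much deeper than these, which checks the code and not its power at the depth of these data. Named miRNAs are the members, the 3 most like each, neighbours by mean share, and list members with at least 10 counts. The 18 pairs of replicates within groups all differed beyond sampling noise (resampled chi-square test, 2000 resamples), so none was merged. Depth, from 115 to 14862 counts, sets the precision: a count of 0 allows up to 3 counts. Sequences came from RefSeq (both members matched) and GENCODE.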

Additional observations from a re-analysis of the deposited data

Results flagged for a closer look

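Across the groups of 4 libraries, 8 sets of member values were searched for a single distant library, and 1 set had one. Chance alone gives about 1 in 20 sets where values have equal spread, which libraries of uneven depth do not have. With 8 sets searched, 1 such set is not unusual, and the sets share values because the sum holds the miR-1246 share. The distant value was the summed share of miR-1246 and miR-1290 in TGFb replicate 2 (4.76%), whose gap to the next library was 0.845 of the group's range. It rests on 11 of 231 counts, all miR-1246.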

How the results depend on the processing

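Depth limits the values of shallow libraries: 1 count was 0.870% of the shallowest, more than the mean miR-1290 share. In no setting did a member pass edgeR, DESeq2 or limma (limma on the adjusted table). Kept totals of all miRNAs as library sizes and the 2 libraries farthest from the median share were chosen after seeing the data. The scalings moved the median log2 fold change of all tested miRNAs by −0.64 to 0.41, and the 12 member directions held under RLE factors, library totals and kept totals, also relative to that median. In the fits of only 2 groups, miR-1290 did not pass the filter in the 3 comparisons with TGFb.

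The main fit did not pair libraries by replicate number, because the labels do not say what a number marks. Same-numbered libraries did deviate together, with r from 0.00574 to 0.628 (mean 0.307, 15 of 18 pairs above 0.1). What they share was not tested. With the replicate number as a block, 0 of 12 member comparisons passed, and miR-1290 in TGFb against FGF was −2.33 (edgeR adjusted p = 0.135). In that fit 2 of the 12 had an unadjusted edgeR p under 0.05, against 1 without the block. Both were of miR-1290, in TGFb against SB and TGFb against FGF, and in each of these comparisons 7 of all 47 miRNAs had one.

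Of the planned and added settings other than leaving out a library, 192 values kept their direction and side of the threshold. In libraries of at least 500 counts the share difference of TGFb from NT turned to −0.0835 percentage points for miR-1246 and −0.354 for the sum, and that of FGF from SB to −0.731 for the sum. The last was −0.362 in the adjusted table and −0.764 without miR-483-5p and miR-483-3p in the total. The r of miR-1246 share with the total was −0.433 without NT replicates 1 and 3, −0.520 in the adjusted table and −0.464 within groups, none past the threshold. For miR-1290 the r was 0.197 and 0.260 in the first and last of these. The r between both shares was 0.630 in the adjusted table and passed. The causes were not tested.

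Leaving out 1 library in turn, 564 of the values held, 25 turned and 7 no longer passed the threshold. A difference in share or proportion between groups cannot change when the library left out is in neither group. Part of the 564 therefore held by construction. The log2 fold change of miR-1246 ran from −0.063 to 1.07 in FGF against NT, −0.062 to 0.87 in TGFb against NT and −0.32 to 0.49 in TGFb against FGF. That of miR-1290 ran from −0.64 to 0.87 in FGF against SB and −1.32 to 0.43 in TGFb against NT. Share differences ran from −0.364 to 1.44 (TGFb against NT) and −1.04 to 0.995 (FGF against SB) for miR-1246, −0.0167 to 0.718 (FGF against SB) for miR-1290, and −0.883 to 1.43 (TGFb against NT) and −0.415 to 1.71 (FGF against SB) for the sum. The proportion of miR-1290 in SB against NT ran from −1.99 to 7.63. The r with the total ran from −0.833 to −0.496 for the miR-1246 share and −0.229 to 0.0798 for the miR-1290 share.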
